A study of Homo sapiens with 8 samples.

Results

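The NR4A and AP-1 genes studied here are 10 genes: the nuclear receptors NR4A1, NR4A2 and NR4A3, the FOS family genes FOS, FOSB, FOSL1 and FOSL2, and the JUN family genes JUN, JUNB and JUND. They were taken from the 60609 genes of the deposited count table by their gene symbols in the GENCODE 29 annotation, and all 10 were found. RNA was sequenced from GNAS R201C/+ cells, a derivative of the human colon cancer line HCT116 that was made with CRISPR-Cas9 and has one GNAS allele altered, and from parental HCT116 cells with wild-type GNAS. Each group had 4 libraries, and both groups (parental labelled Ctrl, the derivative CRISPR-Cas9) were grown in the same serum-containing medium. The labels say neither whether the edited line is 1 clone nor whether the libraries came from separate cultures, so clone, editing and genotype cannot be told apart and a p-value here speaks only to the spread among the libraries, which may be technical.

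AP-1 is a dimeric transcription factor made of a JUN protein paired with a FOS or another JUN protein, which binds the sequence TGANTCA. FOS, FOSB, JUN and JUNB are immediate early genes, switched on within minutes of a growth factor or cAMP signal without new protein synthesis, while FOSL1 depends on sustained ERK signalling and JUND is expressed steadily. The NR4A receptors are immediate early genes too, but they have no well established natural ligand, so their activity depends mainly on how much of them is made. The product of GNAS, the alpha subunit of the stimulatory G protein, raises cAMP, and cAMP acts on many immediate early genes through CREB, a factor that binds the cAMP response element (CRE) with the core TGACG.

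Libraries held 45796887 to 48768360 counts in GNAS R201C/+ cells and 42584988 to 50986733 in parental cells, and no library stood apart in depth or mitochondrial share, which ran from 5.34% to 5.82%. Total GNAS reads were at 711 ± 13.2 CPM (counts scaled by library size and composition, TMM) in GNAS R201C/+ libraries and 677 ± 16.8 CPM in parental libraries (SD, n = 4 each), which cannot check the allele because counts per gene carry none. GNAS was thus slightly higher (log2 fold change 0.07, edgeR adjusted p = 0.00412), although libraries of the groups overlapped. Of 7 colon epithelial markers, 6 were tested, 4 rose and 1 fell (CDX2), and the 7 together summed to 4410 to 4490 CPM in GNAS R201C/+ and 3860 to 4010 CPM in parental libraries. The untested marker, VIL1, had 3 to 10 reads per library. Leukocyte, fibroblast and endothelial markers summed to at most 0.408, 0.877 and 0.983 CPM in GNAS R201C/+ libraries and 0.372, 0.551 and 1.02 CPM in parental libraries, with PTPRC, CD3E, PDGFRA, DCN and LUM listed at 0.

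Promoter sequence is shown because the CRE core occurs in most of these genes' windows. RefSeq promoter windows, which run from 250 bases before to 50 bases after a start on GRCh38.p14, were matched for 8 of the 10 members; NR4A2 and FOSL1 had no match. The core TGACG, searched on both strands, was present in the windows of 7 of these 8 members and in 24.6% of all 35116 windows. NR4A1 was the member without it in its 2 windows, chr12:52022582-52022881 and chr12:52037465-52037764. The gene runs on to 52059507, and sequence at any start further downstream was not searched. All 300 bases of the JUN window lie in an annotated GENCODE 29 exon, so its core, at -123 from the RefSeq start, is in annotated transcribed sequence. The stretches below end before the first annotated exon base, and capitals mark TGACG or its reverse complement, the full CRE TGACGTCA, which contains that core, and TATAAA. NR4A3 is shown as the member with the largest fold change and JUND as the member with a full CRE. FOS and FOSB are shown as examples of immediate early members with a single core, which JUN and JUNB (at -137) had too.
NR4A3 (chr9:99821635-99821854, plus strand): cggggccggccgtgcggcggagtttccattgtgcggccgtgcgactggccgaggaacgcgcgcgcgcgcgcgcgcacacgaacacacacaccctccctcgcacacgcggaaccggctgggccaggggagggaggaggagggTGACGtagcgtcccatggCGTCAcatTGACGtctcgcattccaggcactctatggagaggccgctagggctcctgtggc
FOS (chr14:75278578-75278773, plus strand): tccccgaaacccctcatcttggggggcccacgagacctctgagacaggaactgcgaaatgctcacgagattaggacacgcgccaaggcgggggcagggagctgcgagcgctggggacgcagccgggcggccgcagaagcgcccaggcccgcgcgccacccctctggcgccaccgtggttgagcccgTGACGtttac
FOSB (chr19:45467746-45467994, plus strand): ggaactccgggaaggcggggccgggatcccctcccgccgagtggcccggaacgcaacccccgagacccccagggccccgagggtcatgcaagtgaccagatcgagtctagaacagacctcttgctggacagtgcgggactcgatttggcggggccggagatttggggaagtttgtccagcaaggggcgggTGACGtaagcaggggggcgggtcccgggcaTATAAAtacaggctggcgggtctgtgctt
JUND (chr19:18281623-18281872, minus strand): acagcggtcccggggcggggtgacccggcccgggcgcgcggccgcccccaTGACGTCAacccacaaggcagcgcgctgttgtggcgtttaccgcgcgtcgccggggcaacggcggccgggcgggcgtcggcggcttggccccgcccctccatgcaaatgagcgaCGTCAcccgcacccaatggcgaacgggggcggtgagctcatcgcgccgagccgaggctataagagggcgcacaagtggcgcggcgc

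Counted from the start, with the base before it at -1, the core began at -64 in FOS and -60 in FOSB, and NR4A3 held 4 copies, at -109, -91, -83 and -25. The last of these, and the TATAAA of FOS, lie past the stretches printed. JUND held the full CRE at -200, a sequence found in 1.85% of all windows, and a further core at -86. TATAAA was in the windows of 3 members, FOS, FOSB and JUNB, against 11.5% of all windows, at -33 in FOS, -30 in FOSB and -31 in JUNB. The AP-1 site TGANTCA occurred in 1 member window, that of FOSL2, and in 7.71% of all windows. The NR4A monomer element NBRE (AAAGGTCA) and the serum response element known as the CArG box were in none of the 8 members' windows, against 1.22% and 1.29% of all windows. These are matches of letters in a short window. Sites outside the windows were not searched, so an absence here covers the windows only, and binding was not measured.

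In the comparison of GNAS R201C/+ with parental cells, 8 of the 10 members rose and 2 fell. All 3 NR4A genes rose, NR4A3 by 2.55-fold, NR4A2 by 1.80-fold and NR4A1 by 1.23-fold. FOS, FOSB, FOSL2, JUNB and JUND rose by 1.16-fold to 1.38-fold, while FOSL1, the most abundant FOS family transcript, fell 1.43-fold. JUN was 1.08-fold lower, a difference that not every alternative kept. All 10 members passed the filter on low counts, with at least 13 reads in every library. By edgeR's quasi-likelihood test, with p-values adjusted over all tested genes and a threshold of 0.05, 48.1% of the 15751 tested genes were called, 24.1% higher and 24% lower, and of the 10503 tested genes with a mean of at least 5 CPM 59.5% were called. A call by itself was therefore common in these data, and in an edgeR test against a 1.5-fold change, which called 256 of the 15751 genes (1.63%), 2 of the 10 members were called, NR4A3 (adjusted p = 0.00415) and NR4A2 (adjusted p = 0.000248). The median log2 fold change was 0.39 over the 10 members and 0.002 over all tested genes, and the median size without regard to direction was 0.42 and 0.12 on the log2 scale. With bulk RNA, more RNA per cell and more cells making it cannot be told apart.

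**Figure D1:**
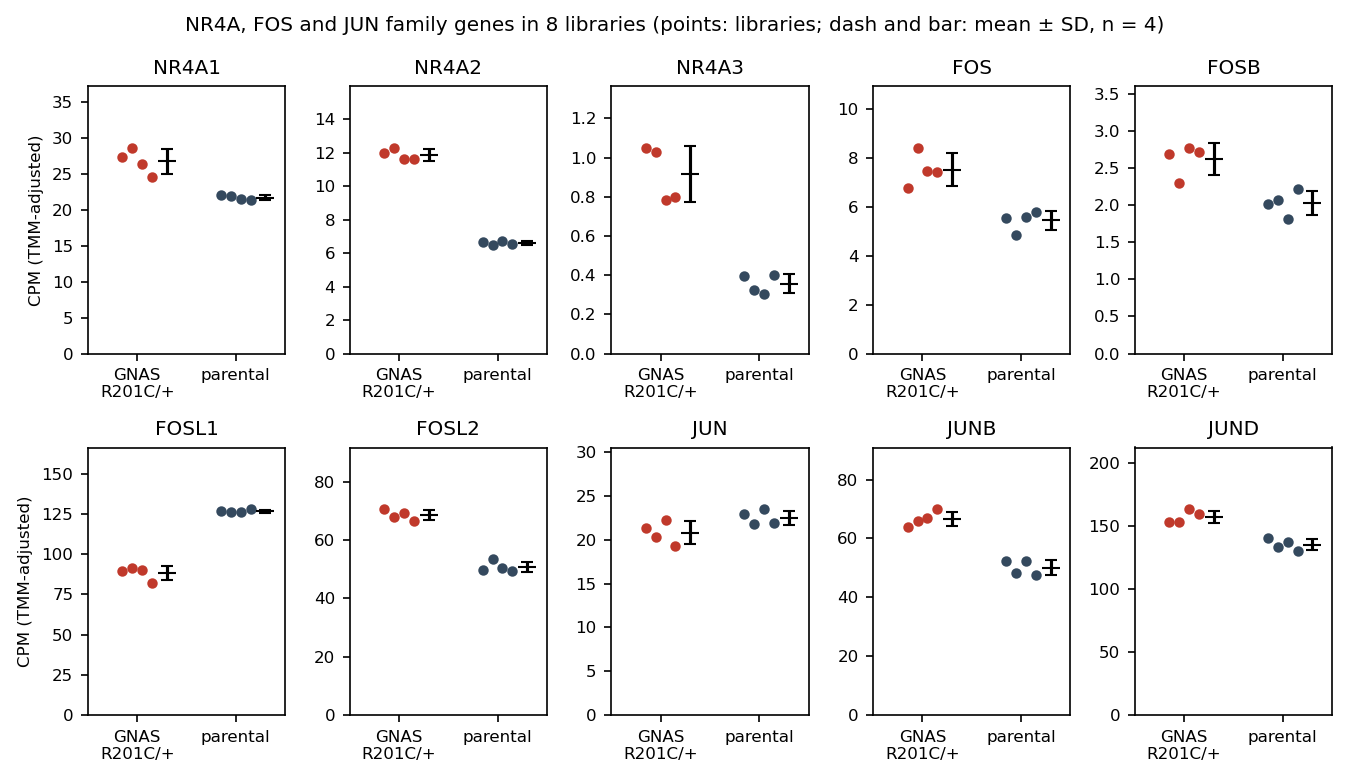
Level of each of the 10 genes in every library, in TMM-adjusted CPM on axes that start at 0, with GNAS R201C/+ left of parental; points are libraries, and the dash and bar beside them are the mean and SD over 4 libraries. The GNAS R201C/+ points lie above all parental points for NR4A1, NR4A2, NR4A3, FOS, FOSB, FOSL2, JUNB and JUND, below them for FOSL1, and overlap them for JUN.

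**Figure D2:**
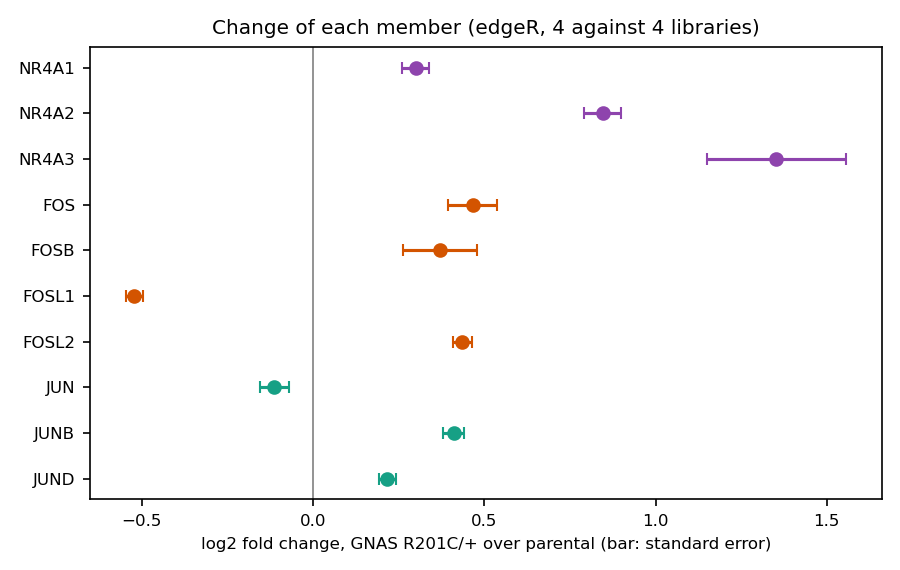
Log2 fold change of each gene, GNAS R201C/+ over parental, with its standard error from edgeR, 4 against 4 libraries. NR4A3 lies farthest to the right at 1.35, FOSL1 farthest to the left at -0.52, and JUN closest to 0 at -0.11.

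NR4A2 (ENSG00000153234.14; GRCh38 chromosome 2, 156324432 to 156342348, minus strand), the receptor also known as NURR1 and a classic CREB target, was at 12, 12.3, 11.6 and 11.6 CPM in GNAS R201C/+ replicates 1 to 4, against 6.67, 6.46, 6.73 and 6.57 CPM in parental replicates 1 to 4. The groups were far apart, and the libraries of each lay close together. The log2 fold change was 0.85 ± 0.06 (SE; edgeR adjusted p = 1.96e-16), the 377th largest change in size among all tested genes.

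NR4A3 (ENSG00000119508.18; chromosome 9, 99821855 to 99866891, plus strand), also known as NOR1, was the scarcest member. It had 49, 47, 37 and 39 reads in GNAS R201C/+ libraries and 20, 15, 13 and 17 reads in parental libraries. Every GNAS R201C/+ library was above every parental one, at 0.915 ± 0.144 CPM against 0.355 ± 0.0486 CPM (SD, n = 4 each). Its log2 fold change of 1.35 carried a standard error of 0.20 (edgeR adjusted p = 4.60e-07), the widest error of the 10, and few reads stand behind it. With a filter of 1 CPM in 4 libraries it was not tested.

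NR4A1 (ENSG00000123358.20; chromosome 12, 52022832 to 52059507, plus strand), also known as NUR77, was at 27.3, 28.6, 26.3 and 24.6 CPM in GNAS R201C/+ libraries and 22.0, 21.9, 21.5 and 21.3 CPM in parental libraries. The groups did not overlap, although GNAS R201C/+ replicate 4 came within a few CPM of the parental libraries. The log2 fold change was 0.30 ± 0.04 (SE; edgeR adjusted p = 3.66e-08). NR4A1 shares 754 exonic bases with AC025259.3 on the opposite strand, which had at most 1 read per library. RXRA, the retinoid X receptor that pairs with NR4A1 and NR4A2, rose to 110 ± 1.25 CPM in GNAS R201C/+ cells, against 97.2 ± 1.09 CPM in parental cells (SD, n = 4 each; edgeR adjusted p = 3.99e-09). Its relative RXRB was listed at 0 in all 8 libraries. Whether RXRB was not expressed or its reads were not counted was not tested.

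The rise was unequal within the NR4A family. The log2 ratio of NR4A2 to NR4A1 counts was -1.17 ± 0.06 in GNAS R201C/+ libraries and -1.71 ± 0.04 in parental libraries, and that of NR4A3 to NR4A1 was -4.86 ± 0.16 and -5.90 ± 0.20 (SD, n = 4 each). Both ratios separated the groups completely, with differences of 0.55 and 1.04 (two-sided exact permutation test, p = 0.0286 each, the smallest that 4 against 4 libraries allows, and 0.0286 after adjustment over the 6 ratios examined). Per length, that is in CPM per kilobase of the longest principal transcript, the 3 receptors summed to 13.6 ± 0.728 in GNAS R201C/+ and 10.1 ± 0.125 in parental libraries. NR4A1 made up 73.6% ± 0.736 of this sum in GNAS R201C/+ cells and 80.5% ± 0.404 in parental cells, NR4A2 25.3% ± 0.792 and 18.9% ± 0.396, and NR4A3 1.18% ± 0.136 and 0.619% ± 0.0855. NR4A1 thus remained the leading NR4A transcript in both groups, but the size of its lead depends on the length used. With the union of all annotated exons as the length, NR4A1 made up 53.8% in GNAS R201C/+ and 63.3% in parental libraries. NR4A2 then made up 44% and 35.5%.

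FOSL1 (ENSG00000175592.9; chromosome 11, 65892049 to 65900573, minus strand) encodes FRA1, the FOS family protein linked to ERK signalling in carcinoma cells. It was at 89.3, 91.5, 90.4 and 81.9 CPM in GNAS R201C/+ libraries and 127, 126, 126 and 128 CPM in parental libraries. The parental libraries agreed within 0.657% of their mean (SD), the tightest of any member, and every GNAS R201C/+ library lay well below them. The log2 fold change was -0.52 ± 0.03 (SE; edgeR adjusted p = 2.16e-19).

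FOSL2 (ENSG00000075426.12; chromosome 2, 28392448 to 28417312, plus strand) encodes the relative FRA2 and went the other way. It was at 70.5, 67.8, 69.2 and 66.6 CPM in GNAS R201C/+ libraries and 49.8, 53.3, 50.2 and 49.3 CPM in parental libraries, with no overlap. Its log2 fold change was 0.44 ± 0.03 (SE; edgeR adjusted p = 8.87e-17).

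FOS (ENSG00000170345.10; chromosome 14, 75278774 to 75282230, plus strand), the prototype immediate early gene, was at 6.77, 8.40, 7.47 and 7.40 CPM in GNAS R201C/+ libraries and 5.55, 4.85, 5.57 and 5.77 CPM in parental libraries. Its libraries were spread more widely than those of FOSL1 or FOSL2, and the lowest GNAS R201C/+ library was still above the highest parental one. The log2 fold change was 0.47 ± 0.07 (SE; edgeR adjusted p = 6.59e-07). FOSB (ENSG00000125740.14; chromosome 19, 45467995 to 45475179, plus strand), whose short splice form deltaFOSB cannot be seen in counts per gene, was at 2.68, 2.30, 2.77 and 2.71 CPM in GNAS R201C/+ libraries and 2.01, 2.07, 1.81 and 2.21 CPM in parental libraries. The groups were separated by a small gap, with GNAS R201C/+ replicate 2 next to parental replicate 4. Its log2 fold change was 0.37 ± 0.11 (SE; edgeR adjusted p = 0.00396).

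Within each library the FOS family shifted away from FOSL1. The log2 ratio of FOSL2 to FOSL1 counts was -0.36 ± 0.06 in GNAS R201C/+ and -1.32 ± 0.05 in parental libraries, a difference of 0.96, and that of FOS to FOSL1 was -3.56 ± 0.13 and -4.54 ± 0.11, a difference of 0.99 (SD, n = 4 each; two-sided exact permutation test, p = 0.0286 and adjusted p = 0.0286 for each). These ratios roughly doubled, by 1.94-fold and 1.98-fold, and neither depends on how libraries were scaled. FOSL2 and FOS rose and FOSL1 fell, each without overlap between groups, so complete separation of both ratios was given in advance. Their p-values therefore add nothing to the separate changes. Per length, FOSL1 made up 78.6% ± 0.594 of the FOS family level in GNAS R201C/+ cells and 87.7% ± 0.106 in parental cells, and FOSL2 15.2% ± 0.516 and 8.73% ± 0.318. FOS made up 5.17% ± 0.437 and 2.91% ± 0.213, and FOSB 1.03% ± 0.109 and 0.619% ± 0.0466. The sum over the family was 67.3 ± 2.83 CPM per kilobase in GNAS R201C/+ libraries, against 86.5 ± 0.527 in parental libraries, lower although 3 of the 4 genes were higher.

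**Figure D3:**
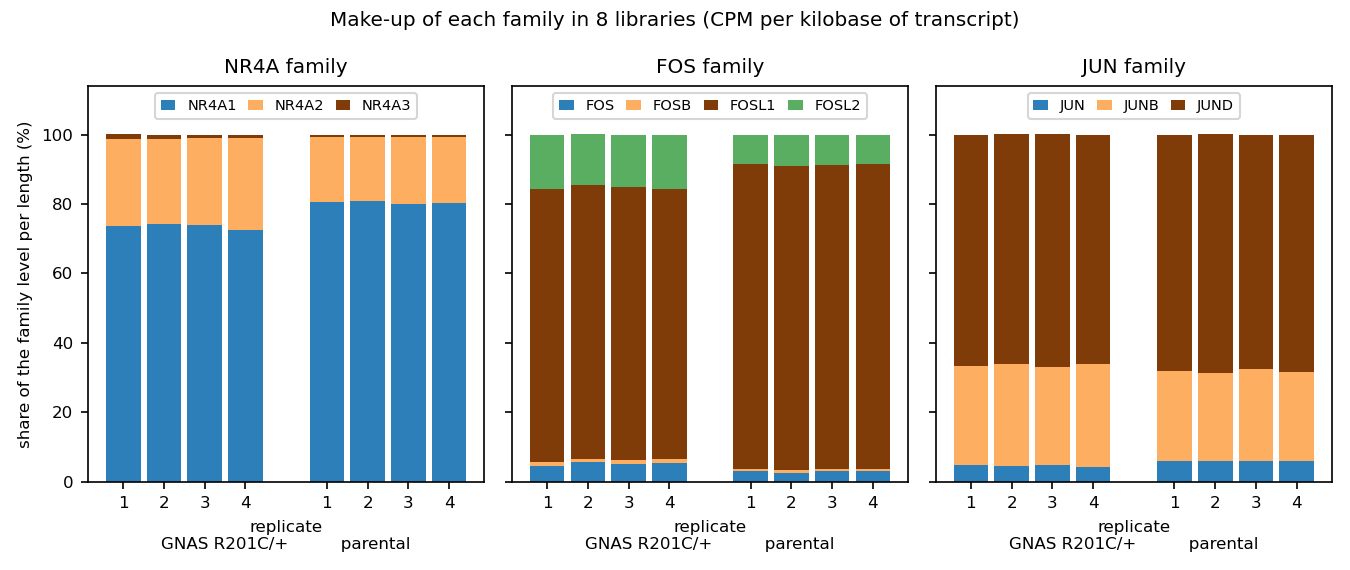
Share of each gene in the summed level of its family, in percent of CPM per kilobase of the longest principal transcript, for each of the 4 GNAS R201C/+ libraries (left) and 4 parental libraries (right). FOSL1 holds 77.7% to 79.0% of the FOS family in GNAS R201C/+ and 87.6% to 87.8% in parental libraries, whereas the JUN family differs by a few percentage points.

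JUNB (ENSG00000171223.6; chromosome 19, 12791496 to 12793315, plus strand), an intronless gene whose protein often opposes JUN, was at 64.0, 65.8, 66.8 and 69.9 CPM in GNAS R201C/+ libraries and 52.3, 48.2, 52.4 and 47.5 CPM in parental libraries. No library overlapped, and the log2 fold change was 0.41 ± 0.03 (SE; edgeR adjusted p = 8.80e-13). JUNB shares 259 exonic bases with HOOK2, a microtubule adaptor gene on the opposite strand, and the strand setting of the counting is not given in the sources used here. HOOK2 was higher too, at 83.5 ± 1.74 CPM in GNAS R201C/+ and 73.6 ± 3.72 CPM in parental libraries (SD, n = 4 each), and its part in the JUNB difference was not tested.

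JUND (ENSG00000130522.6; chromosome 19, 18279760 to 18281622, minus strand), another intronless gene, was at 153, 153, 163 and 159 CPM in GNAS R201C/+ libraries and 140, 133, 137 and 130 CPM in parental libraries. The groups were separate but close, and the log2 fold change was 0.22 ± 0.02 (SE; edgeR adjusted p = 1.21e-09). JUN (ENSG00000177606.7; chromosome 1, 58780788 to 58784327, minus strand), the third intronless member and the founding AP-1 gene, was at 21.4, 20.3, 22.3 and 19.3 CPM in GNAS R201C/+ libraries and 22.9, 21.8, 23.5 and 21.9 CPM in parental libraries. Libraries of the groups overlapped, since GNAS R201C/+ replicate 3 was above parental replicates 2 and 4. The log2 fold change of -0.11 carried a standard error of 0.04 and passed narrowly (edgeR adjusted p = 0.0237). It did not pass with DESeq2 (adjusted p = 0.0720), or in edgeR without GNAS R201C/+ replicate 2 (adjusted p = 0.0709), GNAS R201C/+ replicate 4 (adjusted p = 0.152), parental replicate 1 (adjusted p = 0.0527) or parental replicate 3 (adjusted p = 0.0935). JUN was the 1 member whose groups overlapped; the other 9 did not, against 41.6% of all tested genes.

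JUN and JUND moved apart within libraries. The log2 ratio of JUN to JUND counts was -2.91 ± 0.09 in GNAS R201C/+ and -2.58 ± 0.03 in parental libraries, a difference of -0.33, and that of JUNB to JUND was -1.24 ± 0.05 and -1.43 ± 0.03, a difference of 0.19 (SD, n = 4 each; two-sided exact permutation test, p = 0.0286 and adjusted p = 0.0286 for each). Per length, JUND made up 66.5% ± 0.464 of the JUN family level in GNAS R201C/+ cells and 68.1% ± 0.482 in parental cells, JUNB 28.9% ± 0.723 and 25.9% ± 0.446, and JUN 4.65% ± 0.306 and 5.98% ± 0.104. The family sum was 127 ± 3.75 CPM per kilobase in GNAS R201C/+ libraries and 106 ± 3.89 in parental libraries.

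**Figure D4:**
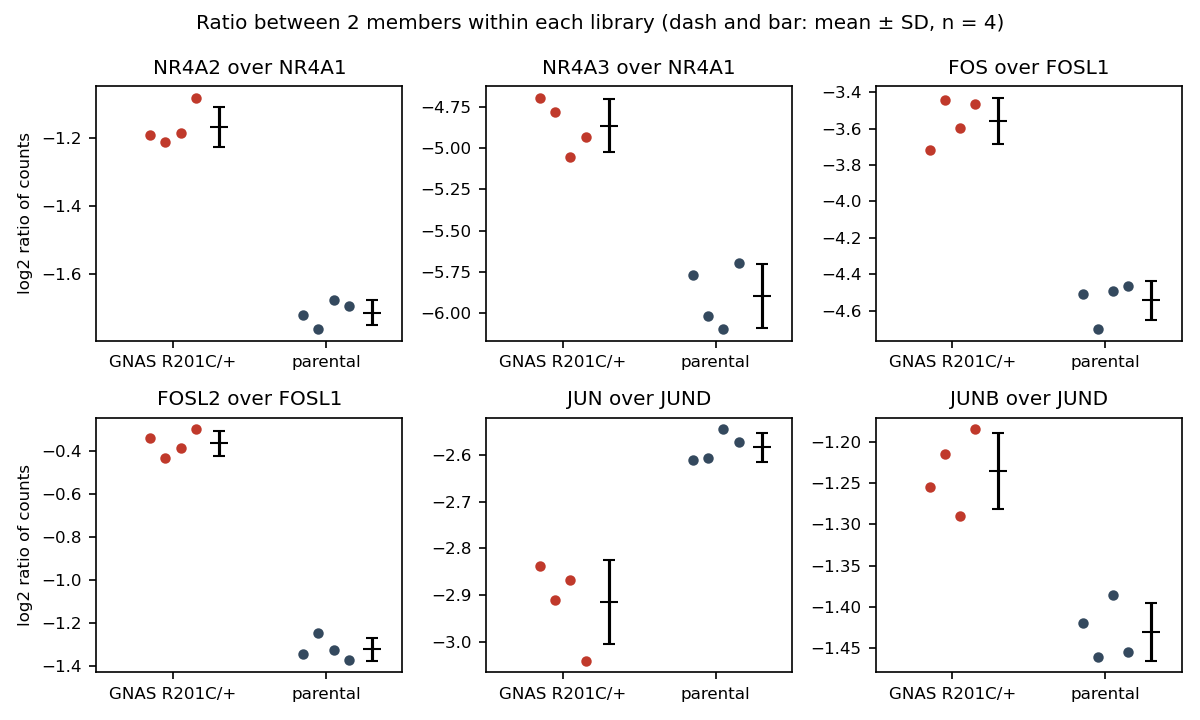
Log2 ratio of the counts of 2 genes within each library, GNAS R201C/+ left of parental, with the mean and SD over 4 libraries beside the points and axes that do not start at 0. In all 6 ratios the groups are separate, with GNAS R201C/+ higher except for JUN over JUND, at -2.91 against -2.58.

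Per length, JUND, FOSL1 and JUNB stood above the other 7 members in both groups, and NR4A3 was lowest. In GNAS R201C/+ cells JUND led at 84.2 ± 2.76 CPM per kilobase, followed by FOSL1 at 52.9 ± 2.61, JUNB at 36.6 ± 1.37, FOSL2 at 10.2 ± 0.250, NR4A1 at 9.98 ± 0.620, JUN at 5.88 ± 0.370, FOS at 3.48 ± 0.311, NR4A2 at 3.42 ± 0.0988, FOSB at 0.692 ± 0.0561 and NR4A3 at 0.160 ± 0.0252 (SD, n = 4 each). The ranges of FOSL2 and NR4A1 overlapped there, as did those of FOS and NR4A2, so these neighbours could not be ordered. In parental cells FOSL1 led at 75.9 ± 0.501 CPM per kilobase, just above JUND at 72.4 ± 2.31, followed by JUNB at 27.5 ± 1.43, NR4A1 at 8.10 ± 0.127, FOSL2 at 7.55 ± 0.265, JUN at 6.36 ± 0.227, FOS at 2.52 ± 0.187, NR4A2 at 1.90 ± 0.0344, FOSB at 0.536 ± 0.0434 and NR4A3 at 0.0622 ± 0.00852. No neighbouring ranges overlapped in parental cells, although FOSL1 and JUND, and NR4A1 and FOSL2, nearly touched. With the union of all annotated exons as the length, JUND led in parental cells as well and NR4A1 ranked 6 in both groups, so the order of these pairs rests on the length used.

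Among all 10503 genes with a mean of at least 5 CPM, those whose pattern over the 8 libraries was most like that of a member were found by the mean absolute difference in centred log2 CPM. For FOS the nearest gene was EGR1, another immediate early transcription factor gene, with a mean difference of 0.05. EGR1 was at 49.2, 60.8, 52.9 and 52.9 CPM in GNAS R201C/+ libraries and 37.0, 34.5, 38.9 and 36.9 CPM in parental libraries. In both genes GNAS R201C/+ replicate 2 was the highest library and parental replicate 2 the lowest. PRRG4 and FER1L4 came next for FOS, at 0.05 and 0.06. For NR4A2 the nearest were CYP24A1, which degrades vitamin D, the integrin gene ITGB4 and NEBL, at 0.03 to 0.04, and for FOSL1 they were MAP1B, RPTOR and SAV1, at 0.03 each. These 2 sets match mainly in the size of the difference between groups, as CYP24A1 shows at 634 ± 5.70 CPM in GNAS R201C/+ and 354 ± 2.48 CPM in parental cells.

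Other immediate early genes went both ways. Of 41 listed, 38 were tested, 19 rose, 11 fell and 8 did not pass, with a median log2 change of 0.11. That is 78.9% called, against 48.1% of all tested genes and 59.5% of those with a mean of at least 5 CPM. EGR1 rose by 0.55 on the log2 scale (edgeR adjusted p = 0.000214). NFKBIA, the NF-kB inhibitor gene, was at 52.9 ± 1.56 CPM in GNAS R201C/+ and 33.6 ± 1.45 CPM in parental cells, ID2, an inhibitor of differentiation, at 119 ± 6.13 and 83.8 ± 1.60 CPM, and the CREB-binding protein partner CITED2 at 44.1 ± 0.836 and 33.5 ± 1.13 CPM. MYC, the growth regulator, fell to 260 ± 3.95 CPM in GNAS R201C/+ cells, against 365 ± 7.52 CPM in parental cells (SD, n = 4 each). With HSP family and other stress genes, which respond to handling as many immediate early genes do, 13 of 16 were tested, 5 rose, 1 fell and 7 did not pass, with a median log2 change of 0.03. That is 46.2% called, close to the 48.1% of all tested genes and below the 59.5% of those with a mean of at least 5 CPM. The gene that fell, the chaperone gene HSPH1, was at 157 ± 5.69 CPM in GNAS R201C/+ and 301 ± 3.40 CPM in parental cells. DDIT4 was at 111 ± 5.13 and 69.6 ± 3.82 CPM, while HSPA5 and BAG3 differed by 0.11 and 0.06 on the log2 scale. HSPA1A and HSPA1B were listed at 0, and whether they were not expressed or their reads were not counted was not tested. Without parental replicate 2 the count of called stress genes was 3. Their part in the members' differences was not tested.

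Dimer partners and relatives with a basic leucine zipper (bZIP) were split in direction. Of 31 listed bZIP and small MAF genes, 26 were tested, 8 rose, 11 fell and 7 did not pass, with a median log2 change of -0.02. That is 73.1% called, against 48.1% of all tested genes and 59.5% of those with a mean of at least 5 CPM. The CNC factor gene NFE2L3 fell to 64.5 ± 1.83 CPM in GNAS R201C/+ cells, against 82.9 ± 2.63 CPM in parental cells, the stress factor gene ATF4 to 338 ± 2.33 against 397 ± 7.76 CPM, and the repressor gene BACH1 to 29.3 ± 1.13 against 36.7 ± 1.07 CPM. XBP1, of the unfolded protein response, rose to 81.4 ± 1.69 CPM in GNAS R201C/+ cells, against 69.2 ± 1.20 CPM in parental cells (SD, n = 4 each).

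Of 37 listed kinases and factors that act upstream of these genes, 35 were tested, 15 rose, 9 fell and 11 did not pass, with a median log2 change of 0.03. That is 68.6% called, against 48.1% of all tested genes and 59.5% of those with a mean of at least 5 CPM. RPS6KA5, which encodes the kinase MSK1 that phosphorylates CREB, rose by 0.59 on the log2 scale, and RPS6KA3, which encodes RSK2, fell by 0.15. ELK3, a partner of the serum response factor, fell by 0.44. MEF2C, a factor that binds the JUN promoter, was at 3.60, 3.60, 3.68 and 4.61 CPM in GNAS R201C/+ libraries and 10.3, 10.0, 8.63 and 9.48 CPM in parental libraries, with a log2 fold change of -1.31 (edgeR adjusted p = 1.44e-17).

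Known AP-1 target genes rose more often than they fell. Of 35 listed, 29 were tested, 14 rose, 4 fell and 11 did not pass, with a median log2 change of 0.11. Of those tested, 48.3% were higher and 13.8% lower, against 24.1% and 24% of all tested genes. In either direction 62.1% were called, near the 59.5% of genes with a mean of at least 5 CPM. PLAU, the urokinase gene, was at 186, 188, 179 and 188 CPM in GNAS R201C/+ libraries and 92.0, 91.7, 91.2 and 94.7 CPM in parental libraries, a 2.01-fold difference (edgeR adjusted p = 7.95e-33). The EGF receptor ligand gene AREG rose by 0.54, the protease inhibitor gene TIMP1 by 0.36 and the laminin gene LAMB3 by 0.33 on the log2 scale. The 4 that fell, named after their values were seen, were the matrilysin gene MMP7, with 3 to 8 reads in GNAS R201C/+ libraries and 34 to 44 in parental libraries, and HMGA1, VEGFA and EGFR, which fell by 0.22, 0.20 and 0.10. Many of these genes also answer to other factors, and binding of AP-1 to them was not measured.

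**Figure D5:**
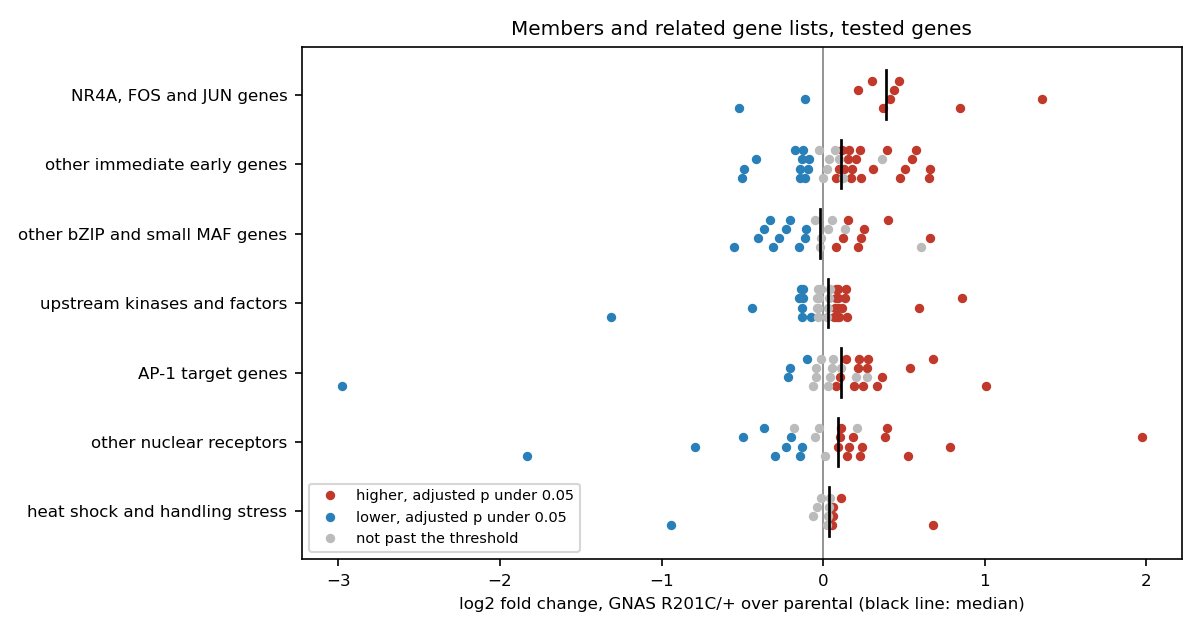
Log2 fold change of every tested gene in the 10 members and 6 related lists, GNAS R201C/+ over parental, with red and blue points past an edgeR adjusted p of 0.05 and a black line at each median. The members' median is at 0.39, and the medians of the lists lie between -0.02 and 0.11.

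Nuclear receptors outside the NR4A family also differed in both directions. Of 45 listed, 27 were tested, 13 rose, 9 fell and 5 did not pass, with a median log2 change of 0.09. That is 81.5% called, against 48.1% of all tested genes and 59.5% of those with a mean of at least 5 CPM. The glucocorticoid receptor gene NR3C1 rose to 36.6 ± 0.956 CPM in GNAS R201C/+ cells, against 21.2 ± 0.264 CPM in parental cells, a log2 fold change of 0.78 (edgeR adjusted p = 2.99e-22), close in size to that of NR4A2. NR2F1, an orphan receptor gene, rose by 0.39 on the log2 scale and the lipid sensor gene PPARD fell by 0.37. HNF4A, a regulator of intestinal identity, was at 0.796 ± 0.0882 CPM in GNAS R201C/+ and 2.84 ± 0.234 CPM in parental cells (SD, n = 4 each), a log2 fold change of -1.83 (edgeR adjusted p = 2.02e-15).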

How the data were processed

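Total RNA of 4 GNAS R201C/+ and 4 parental HCT116 libraries was sequenced after directional library preparation, per the labels. The authors deposited raw read counts per gene. Per the submitters' processing notes, bcl2fastq, Trimmomatic, STAR, featureCounts and DESeq2 were used with GRCh38.p12; their versions, the annotation release, the strand setting and the multimapping rule were not given in the sources used here. Gene IDs were matched without version to GENCODE 29 (58489 of 60609) or a gene name table (2088), and sequences came from RefSeq (GRCh38.p14).

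Genes were tested with edgeR 4.0.16 in R 4.3.3: filterByExpr (minimum count 10, minimum total 15), TMM scaling, group as the only term, robust quasi-likelihood F test and Benjamini-Hochberg adjustment over 15751 genes. Standard errors were approximated as the size of the log2 fold change over the root of F, and can be too small for large changes on few reads. Logged CPM had a prior count of 2, and ratios had 0.5 added to each count. The edgeR and permutation steps were tested on simulated data. Depth was 42584988 to 50986733 counts. Replicates differed beyond sampling noise (chi-square of at least 1.6 per degree of freedom).

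The members, the 6 lists and the tests were chosen with earlier results of these data known. Named are all members, GNAS, RXRA and RXRB, up to 4 called genes per list with the smallest adjusted p, and the 3 genes most like each of NR4A2, FOSL1 and FOS, the members with the largest change at 1 CPM or more. Other genes were named after their values were seen. Alternatives were DESeq2 1.42.0, limma-voom (limma 3.58.1), other scalings, other filters, leaving out each library, blocking on replicate number and testing against a 1.5-fold change. Levels per length used the longest principal transcript, and the union of exons was added after seeing the data.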

Additional observations from a re-analysis of the deposited data

Results flagged for a closer look

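Among 104 sets of 4 libraries, covering the named genes and the 6 ratios in each group, 3 had a single library far from the other 3, which chance alone gives in about 1 of 20 sets. None of these was a member or a ratio. MEF2C was at 4.61 CPM in GNAS R201C/+ replicate 4, and at 3.60 to 3.68 CPM in the other 3. HNF4A was at 0.664 CPM in GNAS R201C/+ replicate 1, and at 0.833 to 0.846 CPM in the others. HSPH1 was at 306 CPM in parental replicate 4, and at 299 to 300 CPM in the others.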

How the results depend on the processing

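Under 16 alternatives (other tools, scalings, filters, the replicate block and left-out libraries), the 9 members other than JUN kept direction and call wherever tested; NR4A3 was removed by the filter of 1 CPM in 4 libraries. Their log2 fold changes with a library left out were at least 1.28 for NR4A3 and ran from 0.83 to 0.86 for NR4A2, and -0.54 to -0.48 for FOSL1. JUN stayed negative, from -0.147 to -0.0761 with a library left out, and did not pass with DESeq2 (log2 fold change -0.11, adjusted p = 0.0720). The cause was not tested. Against a 1.5-fold change, 256 of 15751 genes were called, and 2 of 10 members, NR4A2 (adjusted p = 0.000248) and NR4A3 (adjusted p = 0.00415). The count of called genes was 6369 to 7611 over the other alternatives. The count of called stress genes was 3 to 9 with a library left out, lowest without parental replicate 2 and highest without parental replicate 1. Same-numbered libraries did not deviate together (correlations -0.05 to 0.05, against -0.10 to 0.09 for different numbers). This gave no sign of pairing by number, but it cannot exclude a shared day or culture. With the replicate block, 7413 genes and all 10 members were called. The 6 ratios kept their direction and were 0.52 to 0.56 for NR4A2 over NR4A1 and 0.94 to 0.98 for FOSL2 over FOSL1 with a library left out. Per union of exons, the members' order moved by 1 or 2 places in 9 of 20 places. Depth limits NR4A3 most, at 13 to 20 reads in parental libraries.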
